A study of Solanum lycopersicum with 24 samples.

Results

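Hydroxycinnamoyl tyramine transferases (THT) were followed through 24 Affymetrix arrays of tomato (Solanum lycopersicum) leaves at the flowering stage. A probe set, the group of short probes that reads 1 transcript, was included if either of the authors' deposited fold change tables gave it the symbol THT7-1 or THT1-3 or a title with the word tyramine. This took 4 of 10101 probe sets and 3 genes: THT7-1 (Les.3687.1.S1_at), THT7-8 (Les.3686.1.S1_at) and THT1-3, which had both Les.254.1.S1_at and Les.4038.1.S1_at. Each of the 8 groups had 3 arrays. In the drought experiment, stressed plants had been kept without water for 7 days, and in the heat experiment they had been held at 40 C for 60 min. Both experiments held stressed and greenhouse-grown control plants of a tolerant and of a susceptible genotype. The groups were therefore tolerant stressed, tolerant control, susceptible stressed and susceptible control in each. The genotypes have no other name in the labels, which do not say whether the experiments shared them. Separate plants per replicate are not stated in the labels, so part or all of the spread among the 3 arrays of a group may be technical. In the main fit, standard errors and p-values rest on 1 spread per probe set, pooled over the 4 groups of an experiment.

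THT enzymes transfer a hydroxycinnamoyl group, such as feruloyl or coumaroyl, from its coenzyme A thioester to tyramine, the amine that tyrosine decarboxylase makes from tyrosine. The resulting amides, feruloyltyramine among them, are joined to the cell wall by peroxidases. In tomato and other Solanaceae they are known from wounded and infected leaves, where they accumulate as part of the wall's reinforcement. The transferases belong to the GNAT family of acyltransferases. In the RefSeq annotation of assembly SLM_r2.1, THT7-1, THT1-3, THT1-4 and THT7-8 follow each other on 1 chromosome. In that order, 2 protein-coding genes lie between THT7-1 and THT1-3 and none between the others. THT1-4 had no probe set named here. Closely related transcripts can share probes, so signal from THT1-4 in the THT1-3 or THT7-8 probe sets was not tested.

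The choice of members used measured values. To enter an authors' table, a probe set needed a genotype-treatment interaction (corrected p below 0.05, per the file headers) and a stressed-to-control fold of at least 2 in 1 genotype or more. All 4 probe sets stand in the drought table, and Les.4038.1.S1_at also stands in the heat table. Their drought values, and the heat values of Les.4038.1.S1_at, are therefore described without a test. The heat values of THT7-1, THT7-8 and Les.254.1.S1_at were not used by the choice and were tested. Nearest to the limit on the inside was Les.4038.1.S1_at in the drought experiment, with a largest fold of 2.67 in the authors' deposited table. Outside the heat table stood THT7-8, with a fold of 2.30 in tolerant plants from the fit used here, Les.254.1.S1_at with 2.19 and THT7-1 with 1.39.

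All levels are log2 values from the authors' RMA processing, and 1 unit is a doubling. Reporter probe sets, which match no tomato gene, served as the background, and a level at or under their 95th percentile on an array is called within the background range. The mean 95th percentile was 6.19 and 5.80 in drought tolerant stressed and control arrays, against 4.40 and 4.29 in the susceptible ones. It was 4.81 and 6.22 in heat tolerant stressed and control arrays, against 4.72 and 4.96 in susceptible ones. The bioB spike-in averaged 11.44 and 10.84 in drought tolerant stressed and control arrays and between 5.75 and 6.91 in the other 6 groups, so array set and genotype cannot be told apart in the drought experiment. The gap between 3' and 5' probe sets of 3 housekeeping genes, which widens as RNA degrades, averaged 1.74 and 2.87 in drought tolerant stressed and control arrays, against 0.65 and 1.25 in susceptible ones. In the heat experiment it averaged 4.25 and 5.31 in tolerant stressed and control arrays, against 3.16 and 3.73 in susceptible ones. Replicates of tolerant groups also varied more: the median SD per probe set was 0.39 in drought tolerant stressed arrays, against 0.07 in drought susceptible stressed ones. The 10 leaf marker probe sets, for chlorophyll a/b-binding proteins, photosystem subunits and plastocyanin, averaged between 9.90 and 11.20 over the 8 groups, although single markers were as low as 2.80.

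**Figure D1:**
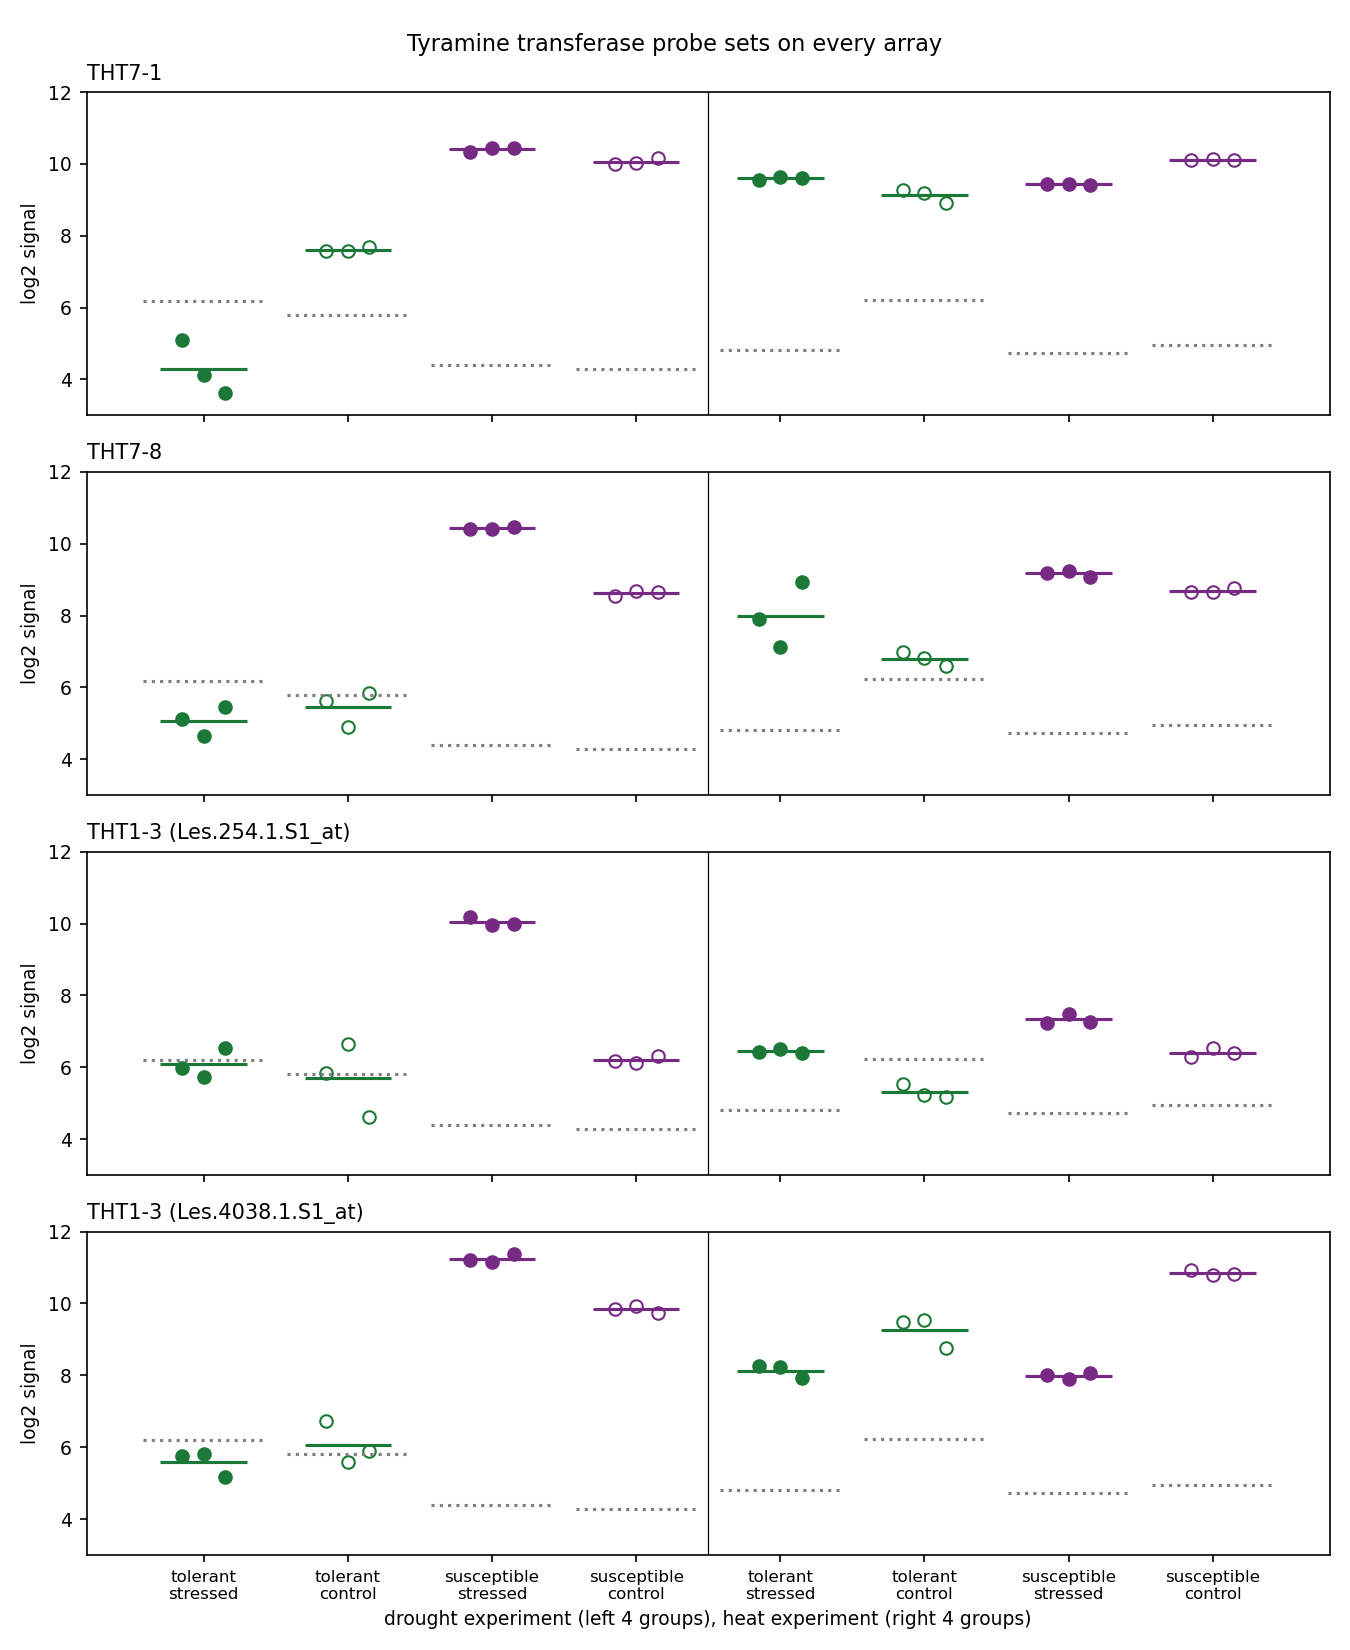
Log2 level of each of the 4 THT probe sets on every array (points, filled for stressed and open for control plants, green for tolerant and purple for susceptible), with group means (solid lines) and the group's mean 95th percentile of the reporter probe sets (dotted lines). Each panel shows 1 probe set, and drought susceptible stressed plants had the highest mean in every panel, from 10.06 to 11.25.

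Under drought the transferases had high signal in stressed susceptible plants and near-background signal in stressed tolerant plants. All 4 probe sets had their highest mean of the 8 groups in stressed susceptible plants, and 3 of them had their lowest in stressed tolerant plants. The difference of the responses, tolerant minus susceptible, was -1.76 or lower for THT7-1 and -1.25 or lower for Les.4038.1.S1_at. It is not given for THT7-8 and Les.254.1.S1_at, whose tolerant responses lay within the background range. All 4 had been listed for that difference. Over all 10101 probe sets this difference was called negative in 18.3%, and since the choice of members used it, nothing is read from that share. In bulk leaf RNA, fewer cells of a type and less RNA per cell cannot be told apart.

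Of the 4 probe sets, THT7-1 alone was above the background range on all 3 arrays of the drought tolerant controls. Its levels were 5.09, 4.13 and 3.63 in stressed tolerant plants, against 7.56, 7.57 and 7.67 in their controls. In susceptible plants the levels were 10.34, 10.45 and 10.44 under stress and 10.00, 10.03 and 10.16 in controls. Stressed and control arrays did not overlap in either genotype, and stressed arrays were low in tolerant and high in susceptible plants. Such lack of overlap was found for 48.2% of all probe sets in tolerant and 77.0% in susceptible plants. The drought response of THT7-1 was -3.32 ± 0.29 (log2 difference ± SE, n = 3 each) in tolerant plants. Because all 3 stressed tolerant arrays were within the background range, it is given as -1.41 or lower. In susceptible plants the response was 0.34 ± 0.29. This SE pools all 4 groups, of which the stressed tolerant arrays varied most (SD 0.74). The SD was 0.06 in stressed and 0.08 in control susceptible plants. The authors' deposited table gives a fold of 9.40 down in tolerant plants and of 1.26 up in susceptible plants.

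THT7-8 signal was within the background range on all 6 drought tolerant arrays, at 5.13, 4.64 and 5.45 under stress and 5.61, 4.90 and 5.85 in controls. No response is therefore given for tolerant plants. In susceptible plants THT7-8 stood at 10.42, 10.41 and 10.45 under stress, against 8.54, 8.69 and 8.66 in controls. The stressed and control arrays of susceptible plants did not overlap, as for 77.0% of all probe sets, and the response was 1.80 ± 0.25.

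THT1-3, the gene with a pair of probe sets, was higher in stressed susceptible plants on both. Les.254.1.S1_at stood at 10.20, 9.97 and 10.00 under stress, against 6.16, 6.13 and 6.31 in controls, a difference of 3.86 ± 0.42. Les.4038.1.S1_at stood at 11.21, 11.16 and 11.37, against 9.85, 9.94 and 9.75, a difference of 1.40 ± 0.27. Neither set of arrays overlapped, and 77.0% of all probe sets had no overlap in this comparison. In tolerant plants Les.254.1.S1_at had levels of 5.99, 5.72 and 6.55 under stress and 5.83, 6.65 and 4.61 in controls. Les.4038.1.S1_at had 5.76, 5.82 and 5.16 under stress and 6.73, 5.58 and 5.90 in controls. The tolerant arrays overlapped between stress and control on both probe sets. In the authors' deposited table the susceptible folds were 11.01 up for Les.254.1.S1_at and 2.67 up for Les.4038.1.S1_at.

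In the control plants of the drought experiment, tolerant arrays lay below susceptible ones without overlap on 3 of the 4 probe sets, and 72.9% of all probe sets had no overlap there in either direction. Tolerant minus susceptible controls gave -2.46 ± 0.29 for THT7-1 and -3.78 ± 0.27 for Les.4038.1.S1_at. For THT7-8 the tolerant controls were within the background range, and the difference was -2.83 or lower. For Les.254.1.S1_at it was -0.51 ± 0.42, with overlapping arrays, and 0.04 without the third tolerant control. In stressed plants, with the tolerant arrays mostly within the background range, the differences were -4.22 or lower for THT7-1, -4.24 or lower for THT7-8, -3.75 or lower for Les.254.1.S1_at and -5.02 or lower for Les.4038.1.S1_at. Over all probe sets, 23.6% were called lower in tolerant controls and 28.7% in tolerant stressed plants. Leaf markers, which had also been picked on these arrays, averaged 9.90 in stressed and 11.20 in control tolerant plants, and 10.13 in stressed and 11.10 in control susceptible plants. Of these 10, 8 were lower in tolerant than in susceptible stressed plants, with a median of -1.10 over the 10, while the 2 psbF probe sets were higher, by 4.39 and 5.08. Both flower markers were higher in tolerant than in susceptible stressed plants: TDR3 averaged 7.86 against 5.21, and LOC543555 (APETALA3 homolog) averaged 7.47 against 3.72, which is within the background range. The 4 fruit marker probe sets all carry the symbol LOC543574 (ASR1 in RefSeq), alone or with LOC543956. Their titles name a fruit-ripening protein or an abscisic stress ripening protein, so their levels are not read as fruit tissue. They averaged 11.01 in stressed and 8.81 in control tolerant plants, and 10.53 in stressed and 9.81 in control susceptible plants. Between stressed plants the single probe sets differed in both directions. Means in tolerant and susceptible stressed plants were 12.30 against 5.96, 12.47 against 11.96, 8.88 against 11.76 and 10.39 against 12.43. The part of these markers, spike-in signal and RNA quality in the THT differences was not tested.

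Heat gave another pattern, in which the 3 genes and even the probe sets of THT1-3 parted. Of the 3 probe sets that could be tested, all 3 rose in tolerant plants, where 29.6% of all probe sets were called higher. THT7-1 and THT7-8 kept these calls in 17 of 19 alternatives each. All 3 tolerant controls of Les.254.1.S1_at were within the background range. In susceptible plants 1 rose (Les.254.1.S1_at), where 12.1% of all were called higher, and 1 fell (THT7-1), where 9.15% of all were called lower. THT7-8 did not pass the test there. All calls are by limma with Benjamini-Hochberg adjustment over the 10101 probe sets at an adjusted p under 0.05.

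THT7-1 went in opposite directions in the 2 genotypes. It stood at 9.55, 9.64 and 9.60 in stressed tolerant plants, against 9.28, 9.19 and 8.91 in their controls. In susceptible plants it stood at 9.45, 9.45 and 9.41 under stress, against 10.10, 10.14 and 10.12 in controls. No stressed array overlapped a control array of its genotype, which held for 55.9% of all probe sets in tolerant and 54.6% in susceptible plants. The response of THT7-1 was 0.47 ± 0.10 in tolerant plants (limma adjusted p = 0.00346, n = 3 each) and -0.69 ± 0.10 in susceptible plants (limma adjusted p = 0.000613). The tolerant response missed the threshold after arrays were centred on their medians, at 0.19 (limma adjusted p = 0.11), a step that moved the median tolerant heat response by -0.28, and with only the 6 tolerant arrays fitted (limma adjusted p = 0.0552). The responses differed by 1.16 ± 0.15 (95% interval 0.83 to 1.48, limma adjusted p = 0.000411), tolerant minus susceptible. Of all probe sets, 27.6% were called for such a difference, 15.5% in this direction.

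In stressed plants the THT7-1 arrays of the tolerant genotype lay just above those of the susceptible one without overlap, as 52.3% of all probe sets did in either direction, but the difference was not called. Tolerant minus susceptible was 0.16 ± 0.10 under heat (limma adjusted p = 0.282, and 0.0211 with array weights), against -0.995 ± 0.10 in controls (limma adjusted p = 7.85e-05). The tolerant controls lay below the susceptible ones on every array, and 66.3% of all probe sets had no overlap between these groups. In the same controls, 26.5% of all probe sets were called lower in tolerant plants, and 6 of the 10 leaf marker probe sets were among the lower ones. Their part in the THT7-1 difference was not tested.

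THT7-8 had levels of 7.91, 7.13 and 8.94 in heat-stressed tolerant plants, against 6.98, 6.81 and 6.59 in controls. The stressed arrays varied widely but all lay above the controls, and 55.9% of all probe sets had no overlap there. The response was 1.20 ± 0.34 (limma adjusted p = 0.0113), and 0.73 without the third stressed replicate. With the gap between 3' and 5' probe sets as a covariate it was 0.33 (limma adjusted p = 0.41), and with only the 6 tolerant arrays it was 1.20 (limma adjusted p = 0.0725). In susceptible plants THT7-8 stood at 9.19, 9.25 and 9.08 under heat, against 8.66, 8.66 and 8.76 in controls. These arrays did not overlap, as for 54.6% of all probe sets. That response was 0.48 ± 0.34 (95% interval -0.26 to 1.22, limma adjusted p = 0.398) with 1 spread for all 4 groups, and the same 0.48 passed when only the 6 susceptible arrays were fitted (limma adjusted p = 0.000811). The difference between the responses, 0.72 ± 0.47 (95% interval -0.32 to 1.77, limma adjusted p = 0.263), was not distinguishable from the replicate spread. It was 1.15 without the second stressed tolerant replicate (limma adjusted p = 0.0353) and 0.25 without the third.

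THT7-8 was lower in tolerant than in susceptible plants under both conditions of the heat experiment. The difference was -1.17 ± 0.34 in stressed plants (limma adjusted p = 0.0208) and -1.90 ± 0.34 in controls (limma adjusted p = 0.00112). With RNA quality as a covariate neither passed, at -0.28 in stressed plants (limma adjusted p = 0.671) and -0.60 in controls (limma adjusted p = 0.34). The stressed difference also lost its call without the first or second stressed replicate of either genotype, and was -0.74 without the second tolerant one. In stressed plants, 13.3% of all probe sets were called lower.

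THT1-3 gave opposite answers by probe set. Les.254.1.S1_at stood at 6.43, 6.50 and 6.40 in heat-stressed tolerant plants, against 5.55, 5.23 and 5.17 in controls. It stood at 7.24, 7.48 and 7.27 in stressed susceptible plants, against 6.27, 6.53 and 6.40 in controls. Stressed arrays were higher than controls without overlap in both genotypes, where 55.9% (tolerant) and 54.6% (susceptible) of all probe sets had no overlap. The response was 1.13 ± 0.12 in tolerant plants (limma adjusted p = 4.18e-05), given as at least 0.22 because all 3 controls were within the background range. It was 0.93 ± 0.12 in susceptible plants (limma adjusted p = 0.000236). Because the tolerant response is a bound, no difference between the responses is given. Les.254.1.S1_at was lower in tolerant than in susceptible plants under heat, by -0.89 ± 0.12 (limma adjusted p = 0.000351). In controls the estimate was -1.09 ± 0.12 (limma adjusted p = 0.000116). Because all 3 tolerant controls were within the background range, it is given as -0.18 or lower, and the p belongs to the estimate, not to this bound.

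Les.4038.1.S1_at, described here without a test, went the other way. It stood at 8.27, 8.22 and 7.91 in heat-stressed tolerant plants, against 9.47, 9.54 and 8.76 in controls, and at 8.00, 7.90 and 8.07 in stressed susceptible plants, against 10.94, 10.79 and 10.81 in controls. All stressed arrays were below the controls of their genotype, where 55.9% (tolerant) and 54.6% (susceptible) of all probe sets had no overlap. The response was -1.12 ± 0.19 in tolerant plants and -2.86 ± 0.19 in susceptible plants, and the difference was 1.73 ± 0.27. The authors' deposited table gives folds of 2.29 down in tolerant plants and 7.58 down in susceptible plants. The probe sets therefore do not give THT1-3 a single direction under heat, and which transcript each one detects is not stated in the sources used here.

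**Figure D2:**
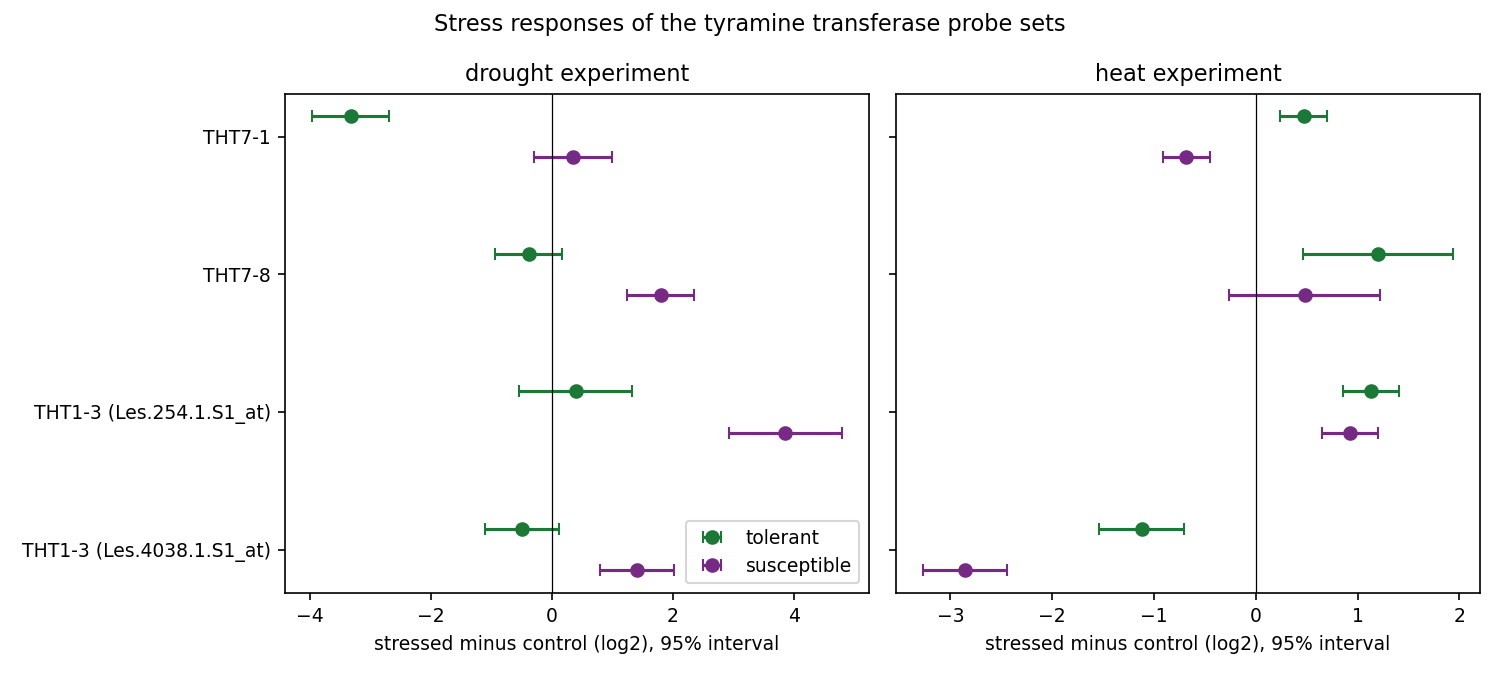
Stressed minus control on the log2 scale for the 4 THT probe sets in tolerant (green, upper) and susceptible (purple, lower) plants of each experiment, as limma estimates with 95% intervals and without the bounds for background signal. The main results give no drought response in tolerant plants for THT7-8, Les.254.1.S1_at and Les.4038.1.S1_at, which were near background. Under heat THT7-1 stood at 0.47 in tolerant and -0.69 in susceptible plants, and the THT1-3 probe sets lay on opposite sides of 0; all drought values, and those of Les.4038.1.S1_at under heat, are descriptive.

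The group order of the levels differed between the probe sets. THT7-1, THT7-8 and Les.4038.1.S1_at had their lowest mean in drought tolerant stressed plants, while Les.254.1.S1_at had its lowest, 5.32, in heat tolerant controls. Neighbouring groups in the order often overlapped: for Les.254.1.S1_at every pair from the third place down shared array values. Over the 8 group means, Pearson's r was 0.84 between THT7-1 and THT7-8 and 0.84 between THT7-1 and Les.4038.1.S1_at. Les.254.1.S1_at had r of 0.74 with THT7-8, with which it shared the first and second place in the order, 0.50 with the other THT1-3 probe set and 0.38 with THT7-1. These are descriptions over groups that share arrays and normalization.

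The substrates of the transferases come from phenylpropanoid and tyrosine metabolism, and their products are oxidised in the wall. Besides the members, 12 named probe sets of phenylpropanoid, shikimate and tyrosine, wall oxidase, polyamine and other acyltransferase genes were found by name patterns. All were named in the authors' tables, so they had been selected on one or both experiments. The tyrosine pattern also took ptpkis1, by its title a protein tyrosine phosphatase and no synthesis enzyme. LOC543912 was taken by the word chorismate in its title, which does not name a step of tyrosine synthesis. In drought, 10 of the 12 had been selected on these very arrays. The differences of response, tolerant minus susceptible, were called negative for 7, positive for 3 and not called for 2. Of all probe sets 18.8% were called positive, and nothing is read from these counts because the selection used this difference. Of the 2 not selected on it, LOC543912 (aminodeoxychorismate synthase) was called positive and LOC100147721 (laccase) was not called. The response of LOC543912 was 0.88 ± 0.20 in tolerant (limma adjusted p = 0.00485) and -0.71 ± 0.20 in susceptible plants (limma adjusted p = 0.0169). These calls were lost in 2 and 5 of 19 alternatives. Its difference was 1.59, the other sign than the THT differences, and was called in 18 of 18 alternatives. The response of CCR1, cinnamoyl-CoA reductase of lignin synthesis, was -0.73 in tolerant and 2.19 in susceptible plants. That of the peroxidase CEVI-1 was -0.74 in tolerant and 1.47 in susceptible plants, and that of the peroxidase cevi16 was -4.23 in tolerant and -0.28 in susceptible plants. EPSP synthase (LOC543977) of the shikimate pathway was at -1.87 in tolerant and -0.25 in susceptible plants. Arginine decarboxylase (LOC543960), which makes the polyamine precursor agmatine, was at -2.15 in tolerant and 0.01 in susceptible plants, while adc1, named for the same enzyme, was at 1.12 in tolerant and 0.05 in susceptible plants.

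In the heat experiment, 8 of the 12 had not been selected on those arrays. In tolerant plants 2 of the 8 rose and 6 did not pass, and in susceptible plants 3 rose and 5 did not pass, where 29.6% of all probe sets were called higher in tolerant and 12.1% in susceptible plants. Their median response was 0.11 in tolerant and 0.04 in susceptible plants, against 0.01 and -0.0004 over all probe sets. The responses of CCR1 differed by -0.80 ± 0.18 (limma adjusted p = 0.01), with a rise of 0.62 ± 0.13 in susceptible plants (limma adjusted p = 0.00511) and -0.18 in tolerant plants (limma adjusted p = 0.252). Arginine decarboxylase (LOC543960) had a difference of 1.00 ± 0.32 (limma adjusted p = 0.0375), which lost its call in 13 of 18 alternatives, with limma adjusted p up to 0.0797. Its response was 0.37 in tolerant plants (limma adjusted p = 0.182) and -0.63 in susceptible plants (limma adjusted p = 0.0686). The SAM decarboxylase probe set not selected on the heat arrays (LOC100134880), which feeds spermidine synthesis, rose by 1.48 in tolerant (limma adjusted p = 7.82e-05) and 0.74 in susceptible plants (limma adjusted p = 0.0117). The acyltransferase-like LOC544234 rose by 0.90 in tolerant (limma adjusted p = 0.000113) and 0.68 in susceptible plants (limma adjusted p = 0.00118). The peroxidase CEVI-1 was lower in tolerant than in susceptible plants, by -0.78 under heat (limma adjusted p = 0.00645) and -0.94 in controls (limma adjusted p = 0.00158).

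**Figure D3:**
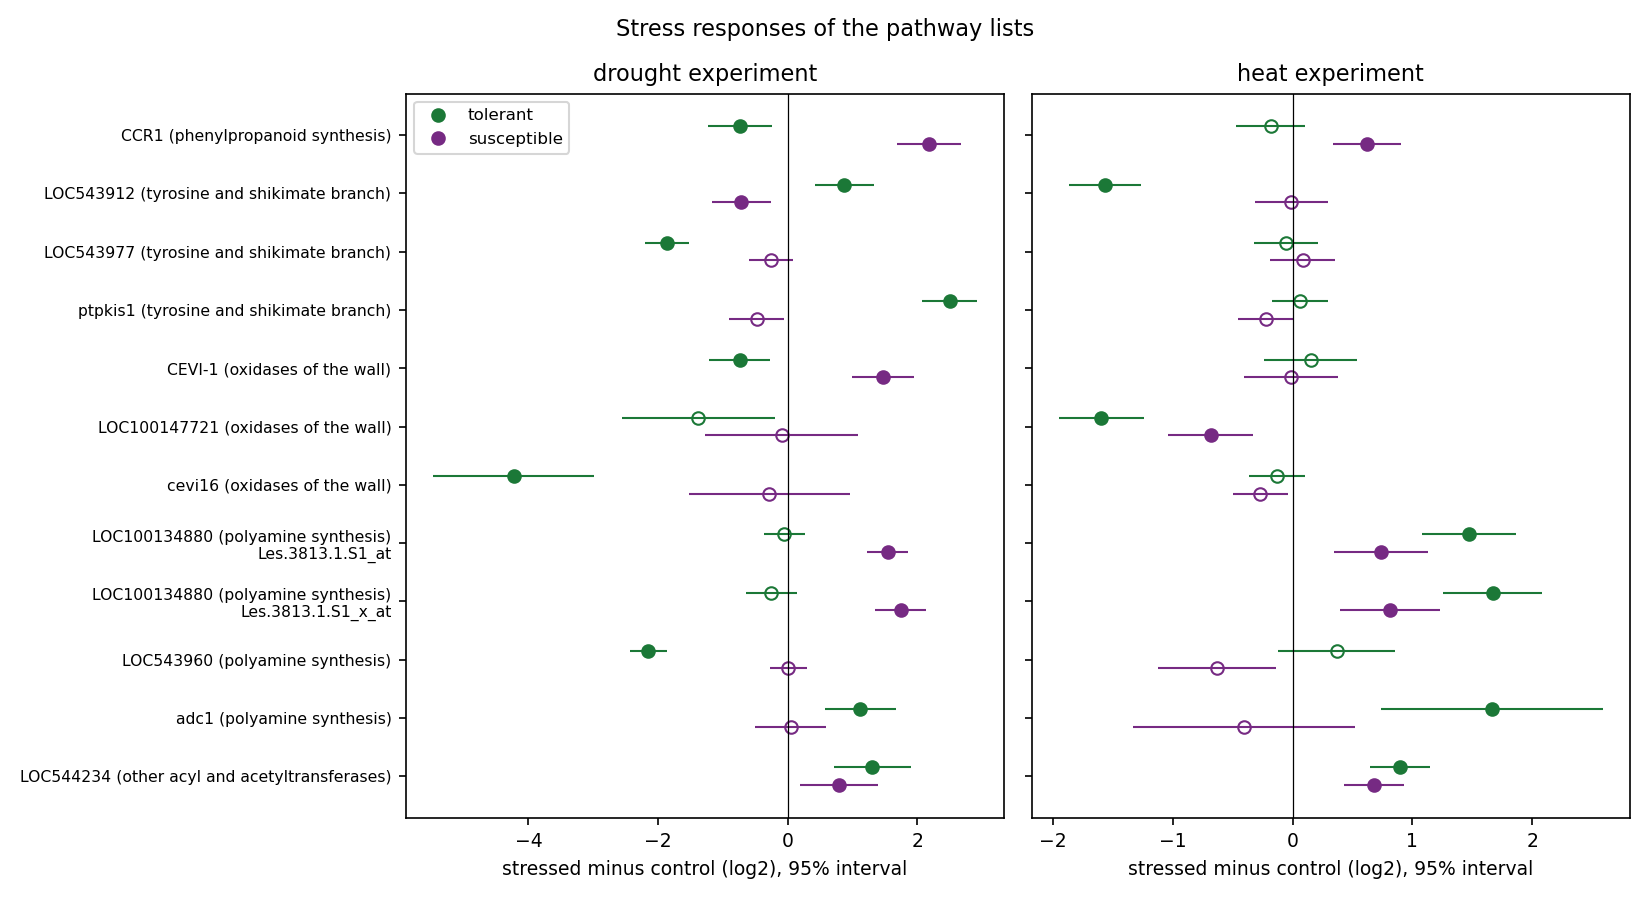
Stressed minus control on the log2 scale for the 12 pathway probe sets in tolerant (green, upper) and susceptible (purple, lower) plants, as limma estimates with 95% intervals; filled points have an adjusted p under 0.05 and open points do not, and values of probe sets selected on the same arrays are descriptive. CCR1 stood at -0.73 in tolerant and 2.19 in susceptible plants under drought.

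Named genes with the most similar profile over the 8 group means were found among the genes in the authors' tables. For THT7-1 they were arginine decarboxylase LOC543960 (Pearson's r = 0.98), the jasmonate-synthesis reductase opr (r = 0.98), POR2 of chlorophyll synthesis (r = 0.94), LOC544310 (r = 0.94) and the ethylene-synthesis gene ACS6 (r = 0.94). LOC544310, by its title a chlorophyll a/b-binding protein precursor, is also a leaf marker. Its other probe set had its lowest mean, 10.50, in drought tolerant stressed plants, as THT7-1 did. However, that probe set averaged 12.06 in drought tolerant controls and 11.42 in drought susceptible controls, the opposite order to THT7-1. The arginine decarboxylase probe set averaged 8.86 ± 0.16 in drought tolerant stressed plants, 11.01 ± 0.23 in their controls and between 11.23 and 12.11 in the other 6 groups (SD, n = 3 each). The drought tolerant groups had its lowest means, as they had those of THT7-1. For THT7-8 they were LOC543511 (r = 0.95), the invertase gene Aiv-1 (r = 0.93), LOC543836 (r = 0.91), the calmodulin gene CALM1LE (r = 0.91) and LeSDH (r = 0.88). For Les.254.1.S1_at they were CALM1LE (r = 0.96), LOC543581 (r = 0.91), the EIN3-like gene LeEIL4 (r = 0.90), LOC544161 (r = 0.89) and the catalase cat1 (r = 0.88). For Les.4038.1.S1_at they were Asc (r = 0.98), tXET-B2 (r = 0.97), LOC543701 (r = 0.96), LOC543942 (r = 0.96) and ACS6 (r = 0.94). CALM1LE stood on the lists of THT7-8 and Les.254.1.S1_at, through a different probe set in each, both of a kind that can match related transcripts, and ACS6 on those of THT7-1 and Les.4038.1.S1_at. The correlations rest on 8 means that share normalization, and the candidates had been selected on these arrays, so they carry no p.

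**Figure D4:**
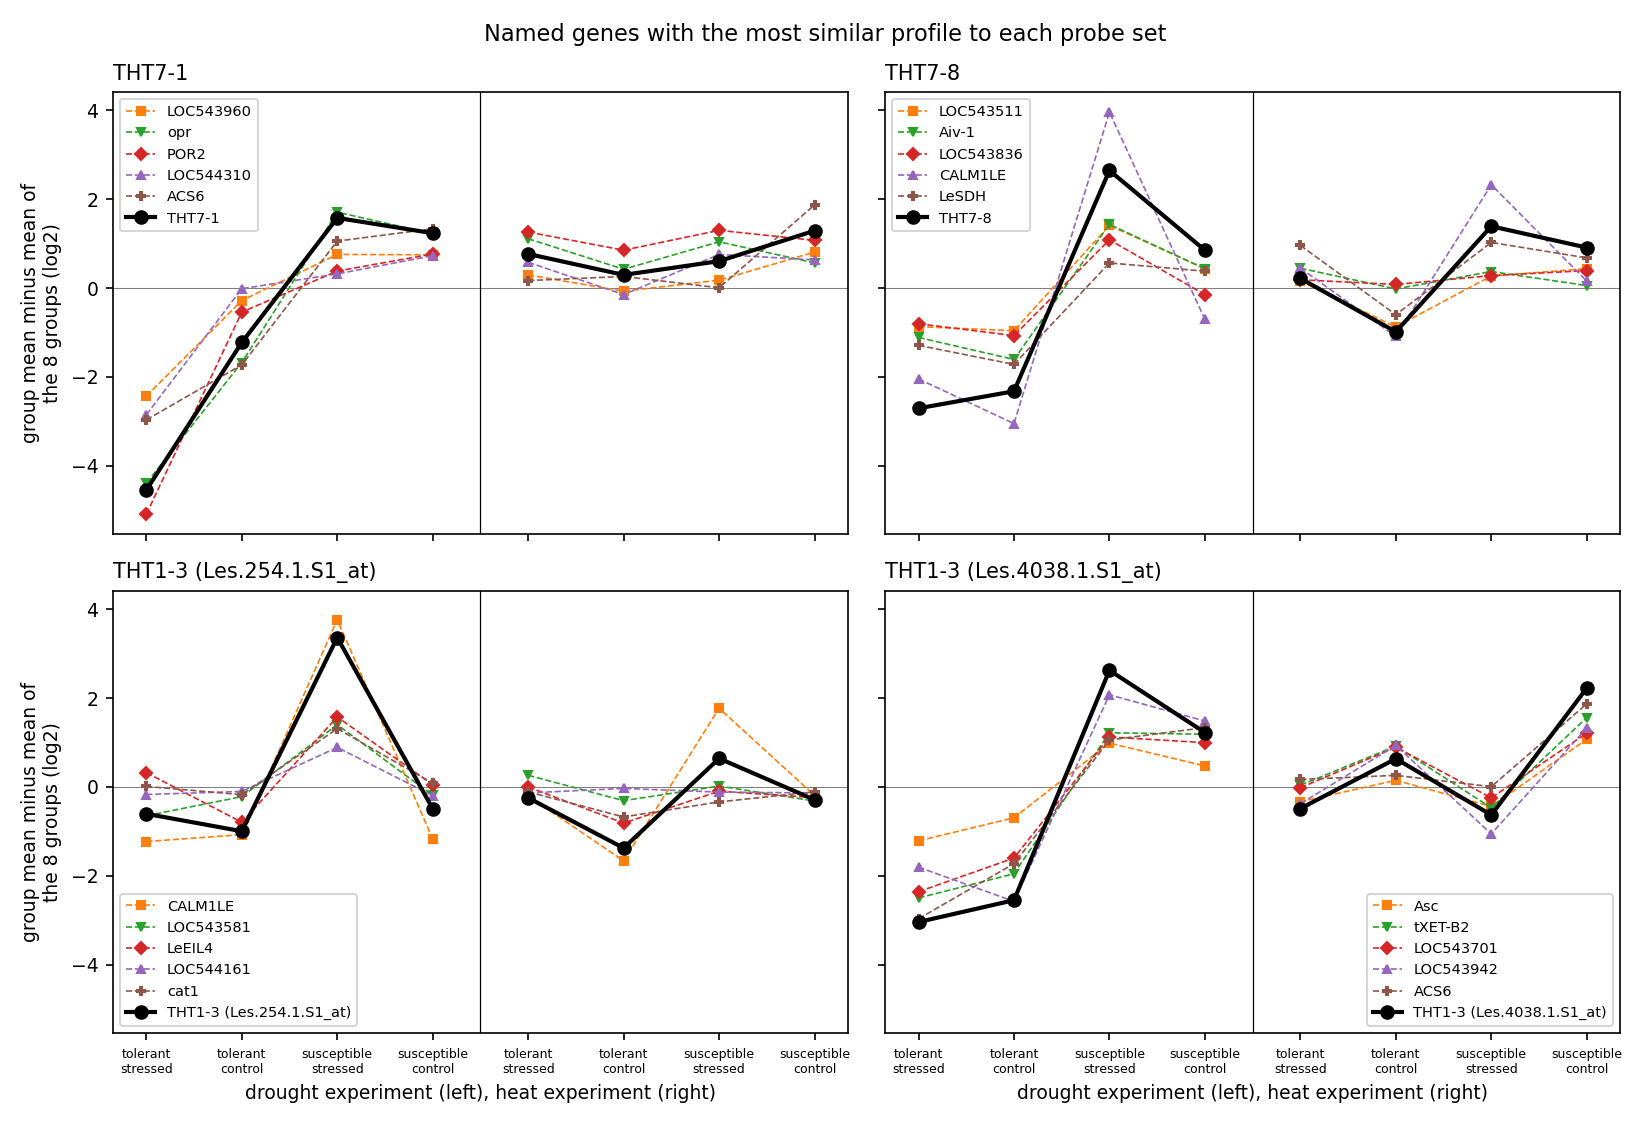
Group means of each THT probe set and of the 5 named genes with the most similar profile, each minus its mean over the 8 groups, on the log2 scale. The arginine decarboxylase profile follows THT7-1, with both lowest in drought tolerant stressed plants.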

How the data were processed

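Total RNA of tomato leaves was measured on 24 Affymetrix arrays. The deposited values are log2 signals per probe set; the submitters' processing notes name Affymetrix Expression Console and RMA 1.0 as the authors' tools. The authors' deposited tables give fold changes as linear ratios, with a corrected p. The 108 AFFX control probe sets of 10209 were left out. Each experiment was fitted in limma 3.58.1 (R 4.3.3) as 4 group means over its 12 arrays, with Benjamini-Hochberg adjustment across 10101 probe sets. Where at least 2 of 3 arrays of the dimmer group were within the background range, a bound is given. No difference is given where the brighter group was too, or where the bound would have had the other sign than the estimate. The fit was checked on simulated data. All probe sets taken by the rule are named, with the 5 most similar named genes for each and lists found by name patterns. The members and lists were chosen with earlier results of these data known. Alternatives covered normalization, dim probe sets, array weights, RNA quality, arrays in the fit, single replicates and the replicate block. The number of arrays limits precision. Gene names came from the authors' tables and RefSeq, which also gave the order of neighbouring genes, and sequences were not used here.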

Additional observations from a re-analysis of the deposited data

Results flagged for a closer look

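For THT7-1 the difference of responses between the genotypes had opposite signs in the 2 experiments, tested under heat and only described under drought. In the heat experiment the difference of responses, tolerant minus susceptible, was 1.16 on the log2 scale and was tested (limma adjusted p = 0.000411), with all 3 tolerant stressed arrays above their controls and all 3 susceptible ones below. Lack of overlap was found for 55.9% of all probe sets in tolerant and 54.6% in susceptible plants under heat. The tolerant heat response alone lost its call after arrays were centred on their medians (0.19, limma adjusted p = 0.11). In the drought experiment the difference was -3.67, with all 3 tolerant stressed arrays below their controls and all 3 susceptible ones above. Lack of overlap was found there for 48.2% of all probe sets in tolerant and 77.0% in susceptible plants. The susceptible drought response was 0.34 ± 0.29, with 1 spread for all 4 groups. The drought difference was not tested, because the gene had been selected on it. With stressed tolerant signal within the background range, its bound was -1.76 or lower. The opposite signs were not particular to THT7-1. For Les.4038.1.S1_at the difference was -1.25 or lower under drought and 1.73 under heat, both only described. For the other THT probe sets no drought difference is given, because their tolerant responses lay within the background range. The drought tolerant arrays were also brighter in bioB spike-in signal, so array set and genotype cannot be told apart in the drought experiment.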

How the results depend on the processing

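Of 752 alternative values for 40 differences of the members, 714 kept their side of the threshold or moved by less than the spread, 23 moved further, 11 lost a call and 4 gained one. The sign turned in 3, none called: Les.254.1.S1_at without the third drought tolerant control was -0.15 for the tolerant response and 0.04 between controls, and Les.4038.1.S1_at between heat-stressed plants was -0.08 with the RNA covariate. The THT7-1 heat difference was called in 18 of 18 alternatives (0.94 to 1.23, limma adjusted p 3.72e-08 to 0.00223), and both heat responses of THT1-3 (Les.254.1.S1_at) in 19 of 19. For 50 tested differences of pathway genes, 852 of 935 alternatives kept their side of the threshold, 30 lost a call and 53 gained one; the sign turned in 33, for 15 differences, with 0 of the turned values called. With RNA quality as a covariate, drought values became 1.18, -0.997 and -1.04 for the tolerant response of Les.254.1.S1_at, THT7-8 and Les.4038.1.S1_at (all near background), 1.47 for the susceptible response of THT7-8, -4.73, -4.76 and -5.13 between stressed plants and -1.64, -2.29 and -2.98 between controls; heat values of THT7-8 became 0.33, -0.28 and -0.60 (tolerant response, stressed plants, controls), and that of Les.4038.1.S1_at between controls -1.91. Repeated quantile normalization gave -3.80, -4.12 and -6.56 for THT7-1 in drought (tolerant response, difference, stressed plants), and -5.82 for THT7-8 and -6.09 for Les.4038.1.S1_at between stressed plants. Centring gave heat tolerant responses of 0.19 for THT7-1 and -1.40 for Les.4038.1.S1_at. With the arrays of only 2 groups, heat values were 1.20 (THT7-8, tolerant), 0.47 (THT7-1, tolerant), 0.48 (THT7-8, susceptible) and -1.17 (THT7-8, stressed; limma adjusted p = 0.0517). Array weights gave 0.46 for THT7-8 in susceptible plants and 0.15 for THT7-1 between stressed plants, both called. Leaving out 1 replicate gave -3.72 to -2.99, -4.07 to -3.34 and -6.53 to -5.80 for THT7-1 in drought (tolerant response, difference, stressed plants), -1.37 to -0.98, 1.48 to 1.88 and -1.73 to -1.34 for Les.4038.1.S1_at under heat (tolerant response, difference, controls), and 0.25 to 1.15 and -1.65 to -0.74 for THT7-8 under heat (difference, stressed plants). Array weights stopped before convergence. The labels give the replicate numbers no shared batch, and same-numbered samples correlated between -0.127 and 0.115 in drought and between -0.339 and 0.360 under heat, with 9 and 18 of 36 best matches on their own number; with the replicate block the THT7-1 heat difference was 1.16 (limma adjusted p = 0.00144), no call of a THT probe set changed, and counts of all called probe sets stayed within 1.5 times. Counts of called probe sets with the RNA covariate were 470 in place of 5872 between heat controls, 3422 in place of 5912 between drought controls, 3148 in place of 5564 for the heat tolerant response and 1533 in place of 3157 between heat-stressed plants. Array weights gave 7481 in place of 4324 for the drought susceptible response, 5480 in place of 2150 for the heat susceptible response, 7197 in place of 2786 for the heat difference (1794 to 4512 without 1 replicate) and 6932 between heat-stressed plants. The arrays of only 2 groups gave 3109 in place of 5110 for the drought tolerant, 7502 for the drought susceptible, 3174 for the heat tolerant and 4431 for the heat susceptible response. The causes were not tested.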
